A study of Mus musculus with 4 samples.

Results

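Levels of 7 genes of the endoderm were followed in mouse embryoid bodies: the transcription factor genes Sox17, Sox7, Gata4, Gata6 and Foxa1, and Dab2 and Amn, which serve endocytosis at the apical surface of the visceral endoderm. The genes were chosen by name, with earlier results of these data known, and all 7 of them stood among the 9997 gene symbols of the deposited data. Counts of calls among the 7, set below beside shares of all genes, are therefore descriptions and not independent of these data. RNA was sequenced from 4 libraries, 1 for each of 4 groups, of embryoid bodies grown from ES-E14TG2a, a mouse embryonic stem cell line. Embryoid bodies are the aggregates that such cells form in suspension. The groups were a control with no day given, and embryoid bodies treated with all-trans retinoic acid (ATRA) and labelled 0, 6 and 10 days. Per the labels' protocols, ATRA at 5 µM was added on the 4th and again on the 6th day of culture to induce neural differentiation. After 8 days the aggregates were placed on dishes coated with poly-DL-ornithine and laminin. The series' design text describes the ATRA groups as stages after 4 days of ATRA. No label gives the culture day of the control, so ATRA and culture age cannot be told apart in a comparison with the control. Whether a library was taken before or after the move to coated dishes is not stated either.

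The primitive endoderm is the epithelium that forms on the blastocyst's inner cell mass and on the outside of embryoid bodies, and it gives rise to visceral and parietal endoderm. Gata6 and Gata4, zinc finger factors, and Sox7 and Sox17, HMG box factors of the SoxF group, act in it and are later used in other tissues: the Gata genes in heart, the Sox genes in blood vessels, and Sox17 in gut endoderm. Foxa1 is a forkhead factor that can open closed chromatin and is used in gut, liver and floor plate. Dab2 is an adaptor that loads receptors of the low density lipoprotein receptor family into clathrin-coated pits, and it is a known target of Gata6. Amn (amnionless) is the membrane partner that carries cubilin, the receptor for vitamin B12 bound to intrinsic factor, to the cell surface. Dab2 and Amn are therefore an adaptor and a receptor subunit. The receptors that they work with, Cubn and Lrp2, were not analysed here.

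Levels are in FPKM, fragments scaled to transcript length and to the size of the library, which lets the levels of different genes be compared. Depth was estimated from the FPKM that 1 fragment is worth as between 24500000 fragments (control) and 27300000 (10 days). Only values inside a set window entered this estimate, so it had to fall within the window's bounds whatever the true depth. The true depth was not tested, and every statement below about counting error depends on the estimate. Intervals given below are 95% exact Poisson or binomial intervals from these estimated fragments, and they cover counting error only. They use the shortest coding transcript of each gene, which makes them wide for Sox17, Gata4 and Dab2. Sox7, Gata6, Foxa1 and Amn have 1 such transcript each, so their intervals are not widened. Each group had 1 library, so no difference has a replicate check, no test was made, and every value describes these libraries. A gene was called higher or lower where log2(FPKM + 1) differed by 1 or more, which is 2-fold on that scale, among the 5885 symbols that reached 1 FPKM in any library. That scale understates the change of low genes. In bulk RNA, fewer cells of a type and less RNA per cell cannot be told apart. Of the genes called between 0 days and the control, 48.9% were higher at 0 days with FPKM as deposited and 65.6% with upper-quartile scaling. The same 2 shares were 55.2% and 67.6% for 6 days against the control, 81.3% and 67.5% for 10 against 6 days, and 65.5% and 53.8% for 10 against 0 days. Upper-quartile scaling put the median gene at 0.15 for 0 days against the control, where the deposited values put it at -0.04.

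All 7 genes passed the 1 FPKM filter. None had its highest level in the control, where 38.2% of all tested genes had theirs. Sox7 was highest at 0 days, Gata4, Foxa1 and Dab2 at 6 days, and Sox17, Gata6 and Amn at 10 days. Summed over the 7 genes, the level was 37.6 FPKM in the control, 76.5 FPKM at 0 days, 374 FPKM at 6 days and 365 FPKM at 10 days. The largest part of the difference of this sum lay between 0 and 6 days, and most of that part came from Dab2 and Gata4. Dab2 was at 16.9 FPKM at 0 days and 184 FPKM at 6 days, and Gata4 at 17.7 and 92.1 FPKM. Gata6 and Sox7 differed most between 0 days and the control, so the sum does not give the course of each gene.

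**Figure D1:**
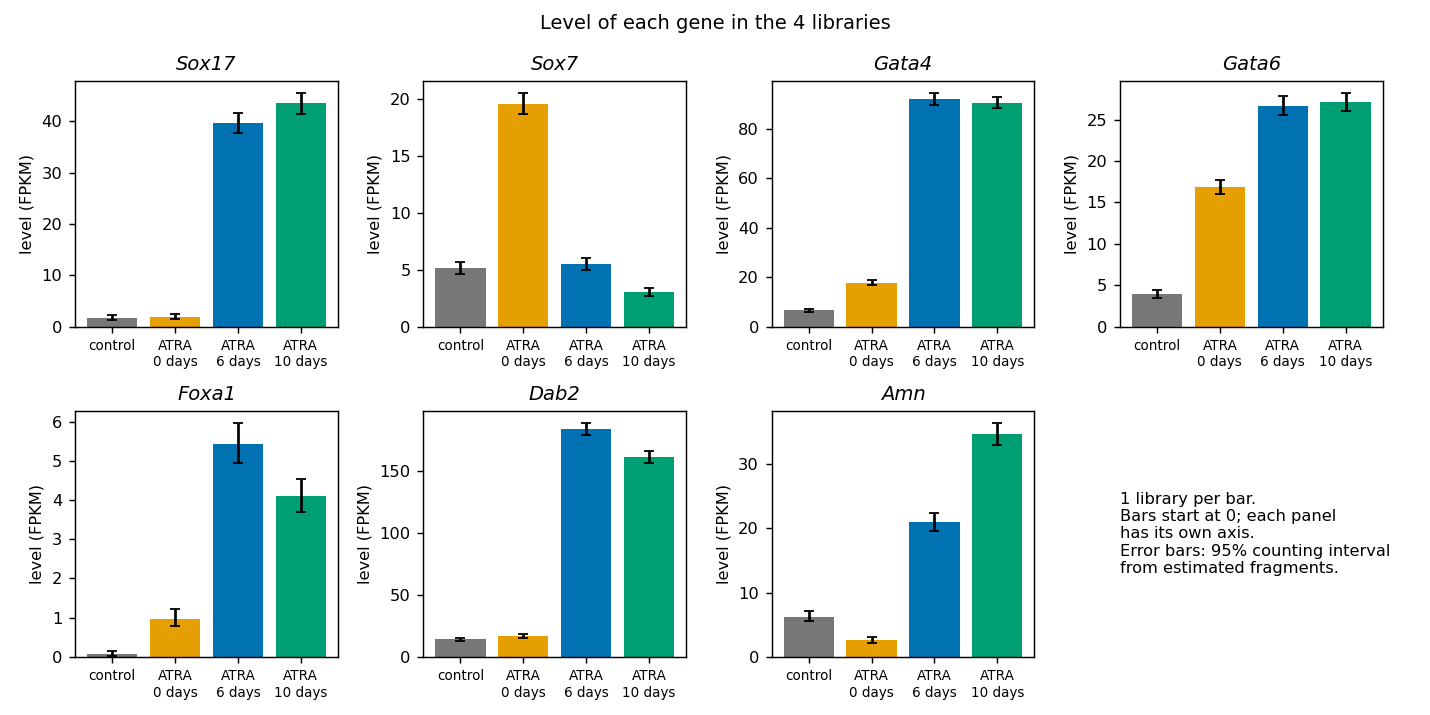
Level (FPKM, bars from 0, each panel with its own axis) of the 7 genes in the 4 libraries, with 95% counting intervals from estimated fragments as error bars. Sox17, Gata4, Foxa1, Dab2 and Amn stand highest in the 6- and 10-day libraries, Gata6 is already at 16.8 FPKM at 0 days, and Sox7 peaks there at 19.6 FPKM.

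At 0 days 3 of the 7 genes, Sox7, Gata4 and Gata6, were called higher than in the control, where 12.2% of all tested genes were. Amn was called lower, where 12.8% of all tested genes were. The median difference of the 7 genes was 0.89, beside -0.04 over all tested genes. At 6 days 5 of the 7 were called higher than at 0 days (8.22% of all tested genes): Sox17, Gata4, Foxa1, Dab2 and Amn. Sox7 was called lower (4.88% of all tested genes), and Gata6 was short of 2-fold. The median difference of this step was 2.32, beside 0.01 over all tested genes. Between 10 and 6 days none of the 7 was called, where 3.7% of all tested genes were higher and 0.85% lower.

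Against the control, 6 of the 7 genes were called higher at 6 days (15.3% of all tested genes) and the same 6 at 10 days (19.6%). The exception at both times was Sox7. No gene of the 7 was called lower than in the control at 6 days (12.5% of all tested genes) or at 10 days (17.1%). Sox7 at 10 days was 0.594 times the control (counting interval 0.507 to 0.692), a log2 difference of -0.60 that was short of 2-fold. Between 10 and 0 days 5 were higher (14.4% of all tested genes) and Sox7 was lower (7.6%). Comparisons that share a library are not independent of each other.

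**Figure D2:**
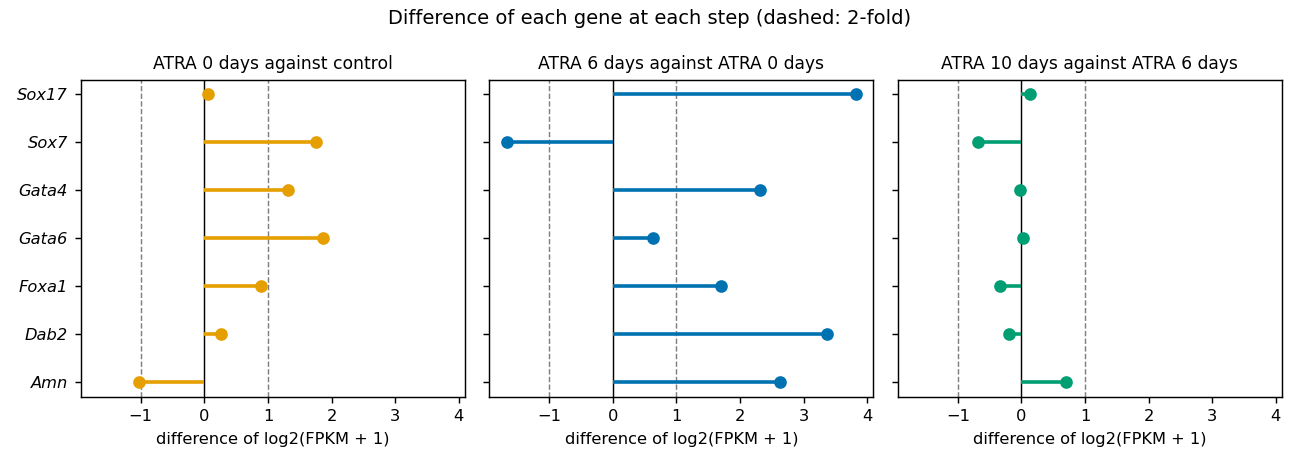
Difference of log2(FPKM + 1), first-named minus second-named library of each panel, for each gene at 3 steps, with dashed lines at 2-fold. The first step is 0 days against the control, whose culture day is not given. The middle step holds the largest difference of Sox17 (3.82), Dab2 (3.37), Amn (2.62), Gata4 (2.32) and Foxa1 (1.70), while Gata6 (1.86) and Sox7 (1.75) differ most at the first.

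The Gata genes were both present in every library and followed different courses. Gata6 (mm10 chromosome 18, 11052064 to 11085635, plus strand) stood at 3.92 FPKM in the control, 16.8 FPKM at 0 days, 26.7 FPKM at 6 days and 27.1 FPKM at 10 days. Its largest step was the first, where the level at 0 days was 4.30 times that of the control (counting interval 3.79 to 4.87). The level at 6 days was 1.59 times that at 0 days (1.48 to 1.70), a difference of 0.64 on the log2 scale. Between 10 and 6 days the ratio was 1.02 (0.959 to 1.08), so these libraries did not differ beyond counting error.

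Gata4 (chromosome 14, 63198922 to 63271692, minus strand) stood at 6.53 FPKM in the control, 17.7 FPKM at 0 days, 92.1 FPKM at 6 days and 90.6 FPKM at 10 days. It was higher at 0 days than in the control by 1.31 and higher at 6 than at 0 days by 2.32 on the log2 scale, the one gene of the 7 to be called higher at both steps. This run of calls was found in 61 of the 5885 tested genes, or 1.04%. The 6- and 10-day levels did not differ beyond counting error (ratio of 10 to 6 days 0.983, interval 0.948 to 1.02).

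Within a library the ratio of Gata4 to Gata6 does not depend on how libraries are scaled. It was 1.67 in the control (counting interval 1.43 to 1.94), 1.05 at 0 days (0.972 to 1.14), 3.45 at 6 days (3.28 to 3.63) and 3.34 at 10 days (3.18 to 3.50). The pair was thus at equal levels, within counting error, at 0 days, and Gata4 was above Gata6 in the other 3 libraries.

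Between 6 and 0 days the SoxF genes differed in opposite directions. Sox17 (chromosome 1, 4490931 to 4497354, minus strand) stood at 1.75 FPKM in the control, 1.87 FPKM at 0 days, 39.6 FPKM at 6 days and 43.5 FPKM at 10 days. The level at 6 days was 21.2 times that at 0 days (counting interval 16.7 to 26.9), while 0 days and the control did not differ beyond counting error (ratio 1.07, interval 0.760 to 1.52). A call at the middle step alone, upward, was shared by Sox17, Foxa1 and Dab2 and found in 247 tested genes, or 4.20%.

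Sox7 (chromosome 14, 63943673 to 63950732, plus strand) stood at 5.11 FPKM in the control, 19.6 FPKM at 0 days, 5.48 FPKM at 6 days and 3.04 FPKM at 10 days. The 0-day library stood alone, at 3.83 times the control (counting interval 3.44 to 4.27), and the 6-day level was 0.280 times the 0-day level (0.251 to 0.310). The 10-day level was 0.555 times the 6-day level (0.475 to 0.645), a log2 difference of -0.68 that was short of 2-fold. At 6 days Sox7 was within counting error of the control (ratio 1.07, interval 0.934 to 1.22). A call upward and then downward was found in 135 tested genes, or 2.29%.

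The ratio of Sox17 to Sox7 was 0.343 in the control (counting interval 0.260 to 0.446) and 0.0955 at 0 days (0.0752 to 0.121). It was 7.23 at 6 days (6.51 to 8.05) and 14.3 at 10 days (12.6 to 16.4). Sox7 made up 74.5% of the pair's summed FPKM in the control and 91.3% at 0 days, against 12.1% at 6 days and 6.53% at 10 days. Gata4 and Sox7 lie 672 kb apart on chromosome 14, and at 6 against 0 days Gata4 was higher and Sox7 lower.

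**Figure D3:**
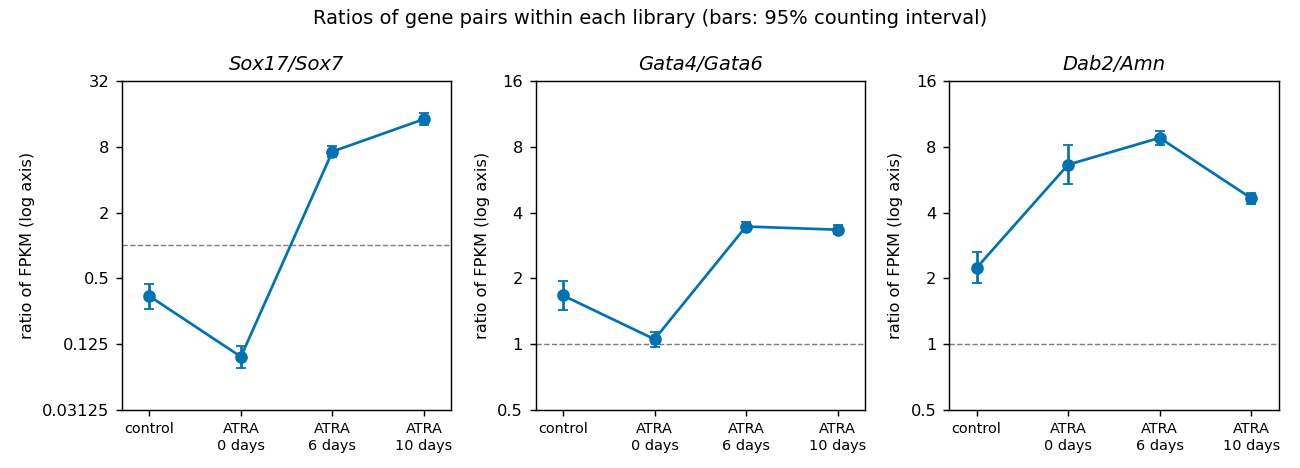
Ratio of FPKM within each library (log axis) for 3 pairs of genes, with 95% counting intervals and a dashed line at equal levels. Sox17/Sox7 crosses 1 between 0 days (0.0955) and 6 days (7.23), Gata4/Gata6 touches 1 at 0 days (1.05), and Dab2/Amn stays above 1, between 2.23 and 8.79.

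Foxa1 (chromosome 12, 57540628 to 57546916, minus strand) was the lowest of the 7 genes in the control and at 0 days. Its level was 0.0669 FPKM in the control, which rests on about 5 fragments, 0.972 FPKM at 0 days, 5.43 FPKM at 6 days and 4.10 FPKM at 10 days. The 0-day level was 14.5 times that of the control (counting interval 6.28 to 48.2), yet on the log2(FPKM + 1) scale this was 0.89 and not called. With a pseudocount of 0.1 FPKM the same difference was 2.68 and past the threshold. The 6-day level was 5.58 times the 0-day level (4.39 to 7.15), and the 10-day level was 0.756 times the 6-day level (0.654 to 0.870).

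Dab2 (chromosome 15, 6299788 to 6440712, plus strand) had the highest level of the 7 in 3 of the 4 libraries. It stood at 14.0 FPKM in the control, 16.9 FPKM at 0 days, 184 FPKM at 6 days and 161 FPKM at 10 days. The 6-day level was 10.9 times the 0-day level (counting interval 9.89 to 11.9), and it exceeded the level of 96.2% of all tested genes in that library, against 66.5% for the 0-day level. The 0-day level was 1.21 times that of the control (1.06 to 1.39), a log2 difference of 0.26.

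Amn (chromosome 12, 111271095 to 111276426, plus strand) stood at 6.27 FPKM in the control, 2.56 FPKM at 0 days, 20.9 FPKM at 6 days and 34.7 FPKM at 10 days. It was lowest in the 0-day library, where its level was 0.408 times that of the control (counting interval 0.326 to 0.512). The log2 difference of -1.03 was at the edge of the threshold, and median-ratio scaling (-0.97) and upper-quartile scaling (-0.83) both ended the call. The 6-day level was 8.19 times the 0-day level (6.72 to 10.0). The 10-day level was 1.66 times the 6-day level (1.53 to 1.80), a log2 difference of 0.70 that was short of 2-fold. In the control Dab2 was at 2.23 times the level of Amn, at 0 days at 6.62 times, at 6 days at 8.79 times and at 10 days at 4.65 times.

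Foxa1, Dab2 and Amn were all called higher at 6 than at 0 days, and RefSeq promoter windows (build GRCm38.p6, 250 bases before to 50 after a start site) were at hand for these 3 of the 7 genes. They are shown for the matches that they hold to factors of the same group. The stretches printed 5′ to 3′ on each gene's strand stop before the first annotated exon base of the coding transcript, and capitals mark the matches described after them. They are chr12:57546122-57546361 (minus strand) for Foxa1, chr15:6299539-6299787 (plus strand) for the upstream of the 2 Dab2 start sites, and chr12:111270846-111271094 (plus strand) for Amn. The Foxa1 stretch also lies in an intron of a longer, noncoding GENCODE transcript of that gene.
Foxa1: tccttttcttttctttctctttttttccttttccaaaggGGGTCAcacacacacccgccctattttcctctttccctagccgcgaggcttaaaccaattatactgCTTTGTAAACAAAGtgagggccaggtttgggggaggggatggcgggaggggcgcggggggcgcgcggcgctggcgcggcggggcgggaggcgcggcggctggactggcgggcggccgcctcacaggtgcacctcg
Dab2: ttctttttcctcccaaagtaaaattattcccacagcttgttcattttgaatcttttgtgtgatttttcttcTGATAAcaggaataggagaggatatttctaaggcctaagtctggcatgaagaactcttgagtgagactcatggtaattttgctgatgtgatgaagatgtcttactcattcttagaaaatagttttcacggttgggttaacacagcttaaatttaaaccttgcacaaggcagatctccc
Amn: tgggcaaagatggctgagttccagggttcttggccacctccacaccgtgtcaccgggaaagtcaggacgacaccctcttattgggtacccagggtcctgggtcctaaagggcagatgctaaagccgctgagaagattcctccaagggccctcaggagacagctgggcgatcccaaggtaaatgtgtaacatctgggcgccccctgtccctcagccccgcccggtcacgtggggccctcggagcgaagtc

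Words were searched on both strands. For GATA factors they were AGATAA or AGATAG, and TGATAA or TGATAG. For SOX factors they were ACAATG or ACAATA, and also ACAAAG. For FOXA factors they were TGTTTAC or TGTTTGC. The words AGGTCA or GGGTCA were searched for as single repeats of the retinoic acid receptor element. The Dab2 stretch holds TGATAA on the gene's strand, from 179 to 174 bases before the start site. The Foxa1 stretch holds TGTTTAC on the opposite strand, overlapped at either end by ACAAAG, once on each strand, and further upstream GGGTCA. The Amn window and the window of the downstream Dab2 start site held none of these words, which says only that these letters are not there. Of 32851 promoter windows of 300 bases, 29.8% held a GATA word, 34.1% a SOX word, 8.48% a FOXA word and 27.5% such a repeat. Further matches fell in the windows outside the printed stretches, 1 GATA word for Dab2 and 2 SOX words for Foxa1. A match is a description of the sequence and not a bound site. The 250 upstream bases of Dab2 hold 2 CpG and 36.8% G or C, against 21 CpG and 62% for Foxa1, 11 CpG and 61.2% for Amn, and medians of 6 and 52.4% over all windows.

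The order of the genes by level changed between libraries. In the control Dab2 was highest, followed by Gata4, Amn and Sox7, of which neighbours were not apart beyond counting error, then Gata6, Sox17 and Foxa1, each apart from the next. At 0 days Sox7, Gata4, Dab2 and Gata6 formed a group between 16.8 and 19.6 FPKM whose neighbours were not apart, far above Amn (2.56 FPKM) and Sox17 (1.87 FPKM), which were not apart from each other, and Foxa1. At 6 days the order was Dab2, Gata4, Sox17, Gata6 and Amn, all apart, with Sox7 and Foxa1 last and not apart from each other. At 10 days all neighbours were apart, with Amn above Gata6 and Sox7 below Foxa1.

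Genes most like each of the 7 were found by the root mean square difference of log2(FPKM + 1) profiles centred over the 4 libraries, among 4242 genes that reached 5 FPKM in any library. Sox17 was most like Serpina6, a hormone-binding serpin (0.11), Ihh, a hedgehog ligand made by visceral endoderm (0.15), and Krt15, a keratin (0.16). Gata4 was most like Srgn, a proteoglycan core protein (0.14), Nrn1 (0.17) and Hkdc1 (0.17). Gata6 was most like Serinc5 (0.06), the keratin gene Krt20 (0.12) and Cthrc1 (0.13). Foxa1 was most like Emb, an adhesion glycoprotein (0.03), and Kctd12 (0.09). Dab2 had no profile as close, its nearest being Fst, which encodes the activin antagonist follistatin (0.23), Nepn (0.25) and Stmn4 (0.26). Amn was most like Lad1 (0.10), Epas1, which encodes a hypoxia-inducible factor (0.12), and Ramp2, a receptor activity modifier (0.14).

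Sox7 was most like Ddx4 (0.05) and Mael (0.15), both germ line genes. Ddx4 stood at 4.63 FPKM in the control, 18.1 FPKM at 0 days, 5.10 FPKM at 6 days and 3.08 FPKM at 10 days, and it too was highest at 0 days. Among the 7 genes themselves the closest pair was Sox17 and Dab2 (0.29) and the farthest Sox17 and Sox7 (2.61). With a pseudocount of 0.1 FPKM the lists of likest genes changed for all 7.

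Other endoderm genes were taken from lists chosen, like the 7 genes, with earlier results of these data known. For visceral endoderm 11 of 36 list genes had values, for parietal endoderm 10 of 24, and for definitive endoderm and gut 11 of 24. For endothelium it was 8 of 26, for heart muscle 13 of 23, for trophoblast 13 of 21 and for macrophages 10 of 17. List genes without values were not analysed, so their levels are not described. Counts called in these and the later lists stand beside the shares of all tested genes. These were 12.2% higher and 12.8% lower at 0 days against the control, and 8.22% and 4.88% at 6 against 0 days. At 10 against 6 days they were 3.7% and 0.85%. Of 26 other endoderm transcription factors 9 were present and 6 tested. At 0 days 3 of the 6 were higher than in the control and 2 lower (median difference 0.53). This median turned to -2.25 with a filter at 5 FPKM and was 0.10 with no filter, so it gives the list no direction. At 6 days 3 were higher than at 0 days and none lower (median 0.63, and between 0.14 without a filter and 1.43 at 5 FPKM), and none was called between 10 and 6 days (-0.32). Lhx1, a LIM homeodomain factor of the anterior visceral endoderm and also of other tissues, was highest at 0 days (3.40 FPKM), as Sox7 was. Otx2, which acts in anterior visceral endoderm and forebrain, was lowest at 0 days, at 0.447 FPKM, against 5.89 FPKM in the control. At 6 days it was at 6.09 FPKM. Nr5a2, a nuclear receptor, was the one gene of the list called lower against the control at every ATRA stage, at 1.20, 1.40 and 0.988 FPKM at 0, 6 and 10 days, against 12.5 FPKM in the control.

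Genes marking visceral endoderm were higher at 6 than at 0 days in 8 of 11 tested cases and lower in 1 (median difference 2.34, beside 0.01 over all tested genes). Spink1, a secreted trypsin inhibitor, was at 1122 FPKM at 6 days, against 17.6 FPKM at 0 days. Car4, a membrane carbonic anhydrase, was at 141 FPKM at 6 days, against 5.60 FPKM at 0 days. Lefty1, an antagonist of Nodal, was the lower one, at 12.6 FPKM at 6 days, against 38.3 FPKM at 0 days. Between 10 and 6 days 2 of the 11 were higher, Apoa2 and Apom, apolipoprotein genes, and Lefty1 was lower (median difference 0.61, beside 0.02). The differences of Sox17 to Amn at that step lay between -0.68 (Sox7) and 0.70 (Amn).

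Genes marking parietal endoderm, largely of basement membrane, were higher at 6 than at 0 days in 9 of 10 tested cases (median difference 2.29). The exception was Nid2, at 47.0 FPKM at 6 days and 81.3 FPKM at 0 days. Sparc, a secreted matrix protein, was at 1862 FPKM at 6 days, against 259 FPKM at 0 days. Lamb1, a laminin chain, was at 320 FPKM at 6 days, against 49.2 FPKM at 0 days. Of 7 tested genes of definitive endoderm and gut, 4 were higher and 2 lower at 6 than at 0 days (median 1.63, and 0.18 with no filter on low values). Cxcr4, a chemokine receptor of definitive endoderm among other cells, was at 5.71 FPKM at 6 days and 0.366 FPKM at 0 days. The lower ones were Pyy, at 3.91 FPKM at 6 days and 14.3 FPKM at 0 days, and Ripply3, at 1.51 and 5.26 FPKM. Between 10 and 6 days 2 genes of this list were higher and 1 was lower. Pyy was higher, at 18.5 FPKM at 10 days, as was Tff3, at 68.5 FPKM at 10 days and 17.6 FPKM at 6 days. Cxcr4 was the lower one, at 2.35 FPKM at 10 days. From which kind of endoderm the RNA of the 7 genes came was not tested.

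**Figure D4:**
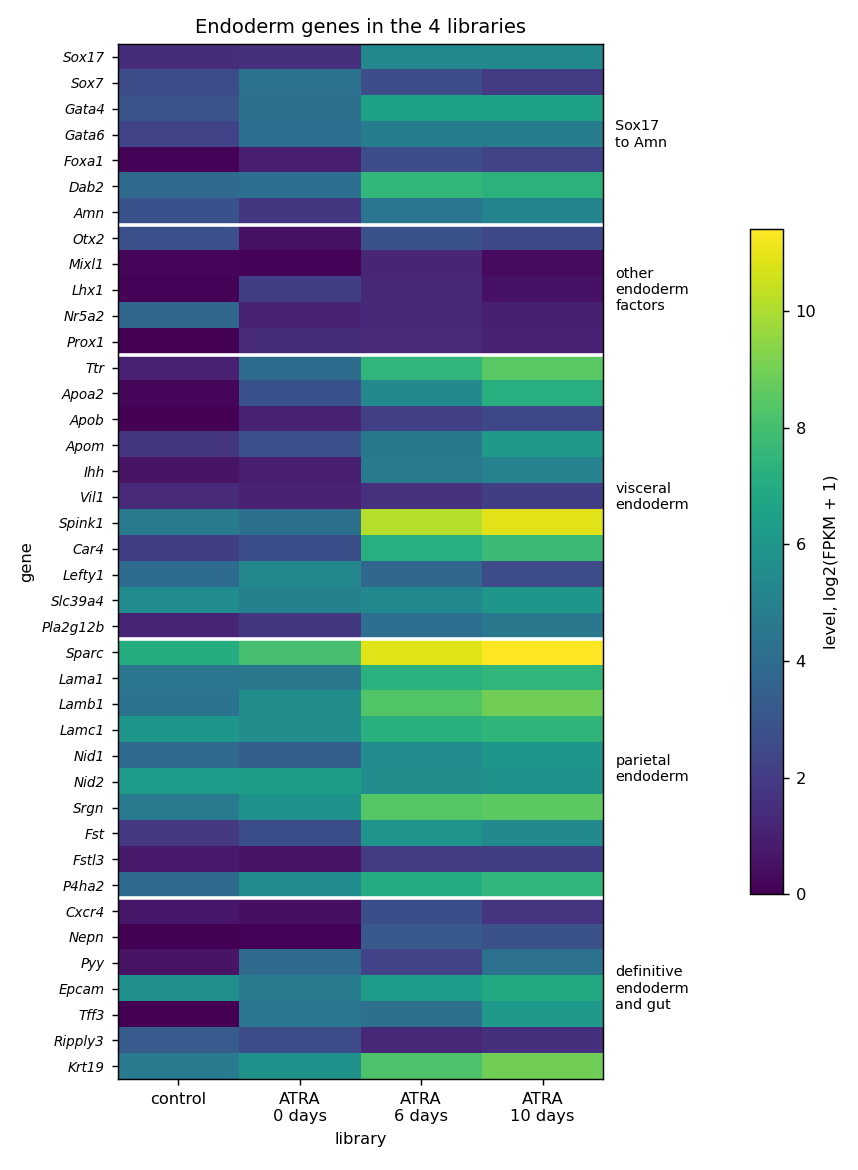
Level, log2(FPKM + 1), of Sox17 to Amn and of tested genes of 4 endoderm lists (rows) in the 4 libraries (columns). Most genes of the visceral and parietal lists brighten between 0 and 6 days, as Sox17 and Dab2 do, while Sox7 and Lhx1 are brightest at 0 days and Nr5a2 in the control.

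Of 33 genes of apical endocytosis, the process that Dab2 and Amn serve, 6 were in the table and tested. At 6 days 1 of the 6 was higher than at 0 days, where 8.22% of all tested genes were, and 1 was lower, where 4.88% were (median difference 0.12, beside 0.01 over all tested genes). Cltb, a clathrin light chain, was at 17.4 FPKM at 6 days and 5.37 FPKM at 0 days, both below the 38.9 FPKM of the control. Lrp1, a large endocytic receptor of the family that Dab2 binds, was lower at 6 days, at 3.63 FPKM, against 9.57 FPKM at 0 days.

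A list of genes around the choice between primitive endoderm and epiblast had 11 tested genes. None was higher and 7 were lower at 0 days than in the control (median difference -2.85), where 12.2% and 12.8% of all tested genes were. Gata6, Gata4 and Sox7 were higher in that step. The list does not hold signalling genes alone. Among the 7 lower ones were the stem cell transcription factor genes Pou5f1 and Esrrb. They were at 97.4 and 3.75 FPKM at 0 days, against 1241 and 129 FPKM in the control. Spry4, a feedback inhibitor of receptor tyrosine kinase signalling, was at 1.42 FPKM at 0 days, against 67.4 FPKM in the control. Of 7 tested genes of retinoid response, 4 were higher at 0 days than in the control (median difference 2.65) and 4 were lower at 6 than at 0 days (-1.70). Hoxb1, a homeobox gene that retinoic acid directly induces, stood at 0.0189 FPKM in the control, 31.5 FPKM at 0 days, 0.480 FPKM at 6 days and 0.181 FPKM at 10 days. Of the 7 genes, Sox7 had its highest level in that same 0-day library.

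Markers of other tissues that use the same factors were set beside the 7 genes. Of 8 endothelial markers in the table, 6 were tested. At 0 days, where Sox7 was highest, none was higher than in the control and 3 were lower. The summed level of the 8 was 14.7 FPKM at 0 days, against 49.2 FPKM in the control, and most of it came from Pecam1, Ramp2 and Mmrn2. Pecam1, which stem cells also express, was at 1.37 FPKM at 0 days and 21.1 FPKM in the control. The markers did not all run that way. Flt4, a receptor of vascular endothelial growth factors, was at 2.56 FPKM at 0 days and 0.992 FPKM in the control. Erg, an endothelial factor, was at 0.490 FPKM at 0 days and 0.0196 FPKM in the control. Both were highest at 0 days, as Sox7 was. Flt4 was not called at 0 days against the control, and Erg, under 1 FPKM in every library, was not tested. Cldn5 (0.901 FPKM at 0 days and 0.162 FPKM in the control) and Icam2 (0.277 FPKM at 0 days and 0.0372 FPKM in the control) were also above the control, at low levels. At 6 days 2 endothelial genes were higher than at 0 days, Ramp2 and Pecam1, and Flt4 was lower. Ramp2 stood at 11.4 FPKM in the control, 6.65 FPKM at 0 days, 38.5 FPKM at 6 days and 60.0 FPKM at 10 days, and was high in the same libraries as Sox17. Icam2 was at 0.0726 FPKM at 6 days and 0.814 FPKM at 10 days.

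Of the heart muscle genes, 13 were in the table and 9 tested, of which 4 were higher at 6 than at 0 days (median difference 0.87, and 2.77 with a pseudocount of 0.1 FPKM) and 6 were higher at 10 than at 6 days (1.27, and 0.83 with no filter). Their summed level was 51.4 FPKM in the control, 16.5 FPKM at 0 days, 75.6 FPKM at 6 days and 333 FPKM at 10 days. Most of it came from few genes: Myl4 made up 35.6 FPKM in the control, and Tnnc1 217 FPKM and Myl7 65.7 FPKM at 10 days. Myh6, Myh7 and Tnnt2 were at 0.624, 3.33 and 3.09 FPKM at 10 days. Gata4 and Gata6 did not differ between 10 and 6 days beyond counting error, in the step where Tnnc1, cardiac troponin C, was at 217 FPKM at 10 days and 45.7 FPKM at 6 days. Nkx2-5, a cardiac factor, was under 1 FPKM in all 4 libraries. Trophoblast genes were higher at 6 than at 0 days in 6 of 10 tested cases, and their summed level was 83.9 FPKM at 6 days, against 16.9 FPKM at 0 days. Ets2, which many tissues express, made up 16.7 FPKM of the 0-day sum. Without it, a choice made after its values were seen, the other 12 genes summed to 0.489 FPKM in the control, 0.203 FPKM at 0 days, 62.0 FPKM at 6 days and 156 FPKM at 10 days. The placental gene Tpbpa was listed at 0 at 0 days and stood at 19.2 FPKM at 6 days. Hand1 stands in both the heart and the trophoblast list.

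Of 14 genes of the floor plate, a tissue in which Foxa1 is also used, 5 were in the table and 2 tested, and none was called at 6 against 0 days. Ntn1, which encodes the guidance cue netrin-1, was at 3.17 FPKM at 6 days and 2.03 FPKM at 0 days. Macrophages also use Dab2. Of 10 macrophage genes in the table, Ptprc, Adgre1, Aif1 and Lyz2 were at 0.198 FPKM or less in every library. Of the 5 that were tested, 2 were higher at 6 than at 0 days, Fcgr3 and Cd14, and 3 were higher at 10 than at 6 days, Fcgr3, Cd14 and Csf1r. Fcer1g was tested and not called. It was at 1.07 FPKM in the control and at 0.284, 0.300 and 0.468 FPKM at 0, 6 and 10 days. Fcgr2b, not tested, was at 0.995 FPKM in the control and at 0.157, 0.443 and 0.399 FPKM at these days. Both were highest in the control. Fcgr3, an Fc receptor, was at 0.409 FPKM in the control, 1.45 FPKM at 0 days, 5.86 FPKM at 6 days and 13.1 FPKM at 10 days. Cd14, a receptor for lipopolysaccharide, was at 0.229 FPKM in the control, 0.414 FPKM at 0 days, 2.31 FPKM at 6 days and 7.52 FPKM at 10 days. Csf1r, a growth factor receptor of macrophages and trophoblast, was at 0.0281 FPKM in the control, 0.803 FPKM at 0 days, 1.44 FPKM at 6 days and 4.15 FPKM at 10 days. Dab2 was not called between 10 and 6 days. Cd68 alone was abundant, between 572 and 1455 FPKM, and the other 9 genes summed to 2.76 FPKM in the control, 3.15 FPKM at 0 days, 10.7 FPKM at 6 days and 25.8 FPKM at 10 days, a sum made without Cd68 after its values were seen. The part of endothelial, heart, trophoblast, floor plate or macrophage cells in the levels of the 7 genes was not tested.

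**Figure D5:**
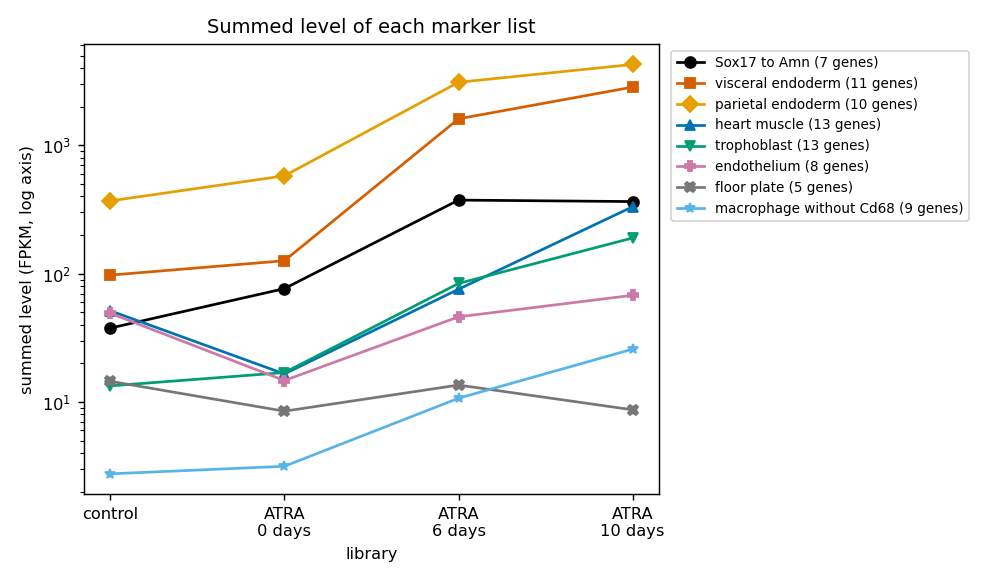
Summed level (FPKM, log axis) of Sox17 to Amn and of 7 marker lists in the 4 libraries, each list with its number of genes in the table. Sox17 to Amn stand nearly level at 10 and 6 days (365 FPKM at 10 days and 374 FPKM at 6 days). Heart muscle genes (333 FPKM at 10 days and 75.6 FPKM at 6 days) and trophoblast genes (190 FPKM at 10 days and 83.9 FPKM at 6 days) still differ between these libraries.

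Within 50 kb of the 7 genes the table held 9 other coding genes, and 6 were tested. One of these, Fdft1 beside Gata4, was called lower at 0 days than in the control and higher at 6 than at 0 days, and none of the others was called at any of the 3 steps. Over all tested genes 12.8% were lower at that first step and 8.22% higher at the middle one, so 1 of 6 is near the share of all genes. Neil2, 5066 bases from Gata4, lay between 7.08 and 10.6 FPKM. Traf3 and Cdc42bpb, on either side of Amn, stood at 2.88 and 15.2 FPKM at 6 days and at 4.40 and 16.4 FPKM at 0 days. The noncoding gene 1010001N08Rik lies on the opposite strand and overlaps the first 504 bases of Gata6. It was called higher at the first and at the middle step, and stood at 1.21 FPKM in the control, 3.80 FPKM at 0 days, 10.1 FPKM at 6 days and 8.78 FPKM at 10 days. No label says whether the counting used strand, so reads of the overlap cannot be told apart between this gene and Gata6.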

How the data were processed

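The deposited table gives FPKM per gene symbol, 1 column per library, per the file headers. Trimmomatic, TopHat, Cufflinks and build mm10 are named per the submitters' processing notes; no source states the annotation or the use of strand. Rows of 177 repeated symbols were summed (10201 rows, 9997 symbols). Differences were taken on log2(FPKM + 1) for 5885 symbols reaching 1 FPKM, and called at 2-fold. The worth of 1 fragment is the median FPKM times length, between 0.02 and 0.05, over 1377 genes with 1 transcript of at least 800 bases in GENCODE M21, which also gives the mm10 positions. Values outside 0.02 to 0.05 were left out, so the median had to lie between these bounds. It rested on 122 (10 days) to 145 (6 days) values per library and lay between 0.0366 (10 days) and 0.0408 (control). Only the 2-fold call was tried on simulated libraries, with planted differences larger than 2-fold. The depth estimate, intervals, likest genes, lists and sequence matches were not checked in that way.

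The 7 genes and 12 other lists were chosen with earlier results of these data known. Named were the 7, their 3 likest genes each (some are not reported here), defining markers of other cell types and, of each list, genes among the 2 largest differences past 2-fold in each direction at a step. Nid2, Ets2, Fcer1g, Fcgr2b, Pou5f1, Esrrb and the genes within 50 kb were chosen after their values were seen. Alternatives were a pseudocount of 0.1, no filter, a 5 FPKM filter, scaling by median ratio or upper quartile, and the highest row of a repeated symbol. Tools were Python 3.11.15 with pandas 2.3.3, numpy 2.4.6, scipy 1.17.1 and, for figures, matplotlib 3.10.9.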

Additional observations from a re-analysis of the deposited data

How the results depend on the processing

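Every one of the 7 genes kept the direction of its called differences under all 6 alternatives, and 70 of 72 counts of called genes among the 7 stayed within 1.5 times the count reported. The exceptions were the genes lower at 0 days than in the control, 0 of 7 in place of 1 under median-ratio and under upper-quartile scaling, where Amn lost its call. A pseudocount of 0.1 FPKM raised counts over all genes, since low genes then pass: 1111 higher at 0 days than in the control (720 as reported), 473 lower at 6 than at 0 days (287), 363 higher and 185 lower at 10 than at 6 days (218 and 50), and 729 lower at 10 than at 0 days (447). Upper-quartile scaling gave 497 lower at 0 days than in the control (752) and 76 lower at 10 than at 6 days (50), as it moves the libraries against each other. Medians of short lists moved with the filter and the pseudocount. That of other endoderm factors at 0 days against the control was 0.53 as reported, 0.10 without a filter and -2.25 at 5 FPKM, that of definitive endoderm and gut at 6 against 0 days 1.63 and 0.18 without a filter, and that of heart muscle at this step 0.87 and 2.77 with a pseudocount of 0.1. The macrophage median between 10 and 6 days was -0.00134 without a filter, in place of 1.04, because genes near 0 then count. Its summed level at 10 days was 25.8 FPKM without Cd68 and 762 FPKM with it. The trophoblast sum at 0 days was 0.203 FPKM without Ets2 and 16.9 FPKM with it. Gata6 between 10 and 6 days, not called, changed sign (-0.11 to 0.02). No paired analysis was possible because each group has 1 library, and leaving out a replicate was not possible for the same reason. Depth limits the control level of Foxa1, about 5 fragments, more than any other value of the 7 genes.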
